A study of Sus scrofa with 9 samples.

Results

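Most ribosomal protein mRNAs were abundant in these porcine hearts and varied less between hearts than the median gene, and no gene of the group passed the test in any comparison of the 3 preservation strategies. The genes described here are the cytosolic ribosomal protein genes, chosen by name: every row of the expression table whose symbol follows the RPL or RPS naming of large and small subunit proteins, or is RPLP0, RPLP1, RPLP2 or RPSA. This rule found 28 of 25149 genes, 12 of the large and 16 of the small subunit, and all 28 had at least 1 TPM in at least 3 hearts. TPM (transcript abundance in parts of a fixed total) is a read count corrected for gene length and scaled to the same total in every heart. Of the 25149 genes, 11782 passed that filter. The large subunit members were RPL5, RPL7L1, RPL8, RPL10A, RPL10L, RPL11, RPL13, RPL18, RPL19, RPL26L1, RPL27 and RPLP2. The small subunit members described by name, 13 of 16, were RPS3, RPS3A, RPS4X, RPS9, RPS12, RPS13, RPS16, RPS18, RPS21, RPS23, RPS26, RPS27L and RPS28. Ribosomal protein genes without such a symbol in the table were not analysed here as members.

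A cytosolic ribosome joins a small subunit, which reads the mRNA, to a large subunit, which forms the peptide bonds. Each ribosomal protein is made in step with the others and with ribosomal RNA, and surplus copies are degraded. The mRNAs of ribosomal proteins begin with a terminal oligopyrimidine (TOP) tract, through which mTOR signaling and the binding protein LARP1 control how much of each is translated, often with little change in mRNA level. In the heart, ribosome number sets the capacity for protein synthesis and grows with hypertrophy.

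The hearts came from a model of donation after circulatory death (DCD) in female American Yorkshire pigs aged 4 to 6 months. In every group, ventilation was stopped under anesthesia and neuromuscular block, and 15 min without touch followed circulatory death. Group 2 (NRP + SCS 2 h, pigs 24, 25 and 29) then had 60 min of normothermic regional perfusion (NRP), which restores warm blood flow inside the donor, and 2 h of static cold storage (SCS) at 4 °C. Group 1 (NRP + HOPE 24 h, pigs 27, 28 and 30) had the same NRP and 24 h of hypothermic oxygenated perfusion (HOPE) at 8 °C with donor red blood cells in the perfusate. Group 3 (No NRP + HOPE 2 h, pigs 31, 33 and 34) was flushed with cold cardioplegia without NRP and had 2 h of HOPE at 8 °C. All 9 hearts, 3 in each group, were reanimated for 2 h by normothermic machine perfusion (NMP) with donor blood before an apex biopsy was frozen. Group 1 and Group 2 thus differed in storage method, duration and temperature together, and Group 3 and Group 2 in NRP, storage method and temperature together, and these cannot be told apart. Group 1 and Group 3 differed in NRP and storage time together. Values below are given in the order of the pig numbers above, each pig gave 1 heart, and any 2 of the 3 comparisons share 3 hearts.

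The labels call the samples cardiomyocytes, but the biopsies were whole myocardium. The cardiomyocyte markers of a fixed list that the table holds, 6 of 8, summed to 22647 to 43212 TPM over the 9 hearts, and those of neutrophils to at most 13.2 TPM. The 13 mitochondrially encoded protein genes took 48.5, 49.5 and 52.7% of all TPM in Group 2, 55.3, 54.7 and 38.2% in Group 1 and 54.95, 49.1 and 44.8% in Group 3, and since TPM is a share, this moved every other gene's value. In such bulk tissue, fewer cells of a type and less RNA per cell cannot be told apart.

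The 28 genes fell into a high and a low class. In the high class were 24 genes with mean levels of 82.2 to 1497 TPM, at or above the 93.3 percentile of the 11782 genes tested. RPS12, a protein of the small subunit head, led with 1497 ± 135 TPM (mean ± SD, n = 9), ahead of RPS3, which lines the mRNA entry channel, with 1358 ± 127 TPM. RPS9, also near the mRNA entry, followed with 1180.0 ± 196 TPM and RPS28, at the mRNA exit, with 1172 ± 201 TPM. The most abundant large subunit members were RPL11 with 953 ± 82.9 TPM, RPLP2 with 916 ± 111 TPM, RPL10A with 833 ± 98.0 TPM, RPL19 with 833 ± 63.3 TPM and RPL5 with 797 ± 122 TPM. RPL5 and RPL11 bind 5S ribosomal RNA, RPLP2 belongs to the stalk that recruits elongation factors, and RPL10A forms the stalk beside the exit of spent tRNA. At the foot of the high class were RPL18 with 290.4 ± 35.1 TPM and RPS21 with 82.2 ± 15.7 TPM.

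The low class held the 4 paralogs whose symbols end in L or L1. RPL26L1 had 32.1 ± 8.75 TPM, RPL7L1, a relative of a yeast ribosome assembly factor, 23.6 ± 4.97 TPM, and RPS27L 11.7 ± 2.42 TPM. RPL10L, a retrogene of RPL10 best known from testis, had 3.04 ± 0.713 TPM, the lowest level of the 28. Together these paralogs made up 0.343 to 0.475% of the members' summed TPM per heart. Their parent genes RPL26, RPL7, RPS27 and RPL10 were not analysed here. Ribosomal protein genes have many processed pseudogenes, and the authors counted uniquely mapped reads, so levels set between genes are less certain than levels of 1 gene set between hearts.

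**Figure D1:**
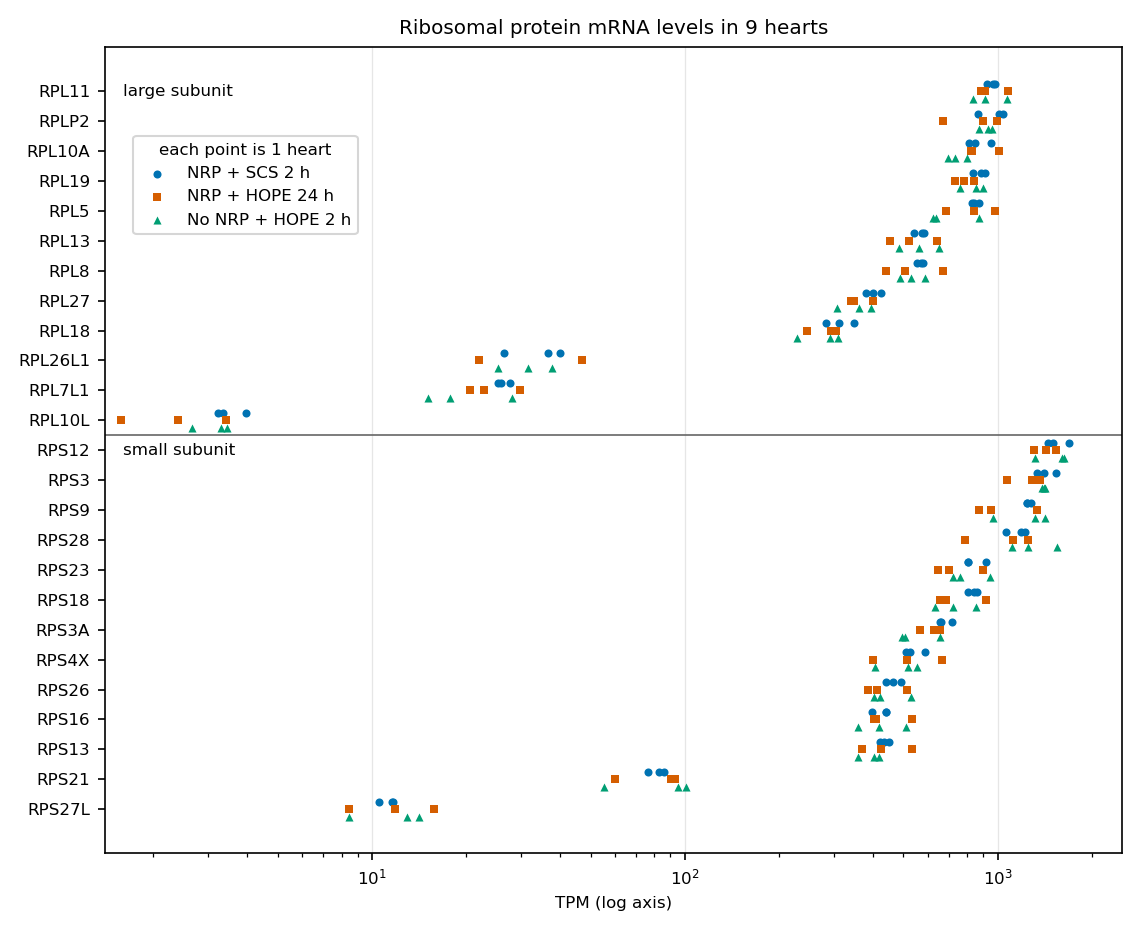
Level of 25 of the 28 ribosomal protein mRNAs in TPM (log axis), 1 point per heart, with the 3 groups in separate colors and rows and genes ordered by mean level within each subunit. The members of the high class lie between 55.3 and 1692 TPM, RPL26L1, RPL7L1, RPS27L and RPL10L lie below 50 TPM, and the groups overlap for nearly all genes.

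The order of the levels was the same in every heart for some neighboring members and not for others. When the 28 genes were ranked by mean level, 9 of the 27 neighboring pairs kept their order in all 9 hearts, among them RPS18 above RPS3A, RPS13 above RPL27, RPL27 above RPL18 and RPS21 above RPL26L1. RPL11 and RPLP2, and RPL10A and RPL19, each held the order of their means in only 4 of 9 hearts. RPS12 lay above RPS3 in 8 of 9 hearts, the exception being pig 31 with 1319 against 1418 TPM.

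The members varied little between hearts. The SD within groups on the log2(TPM + 1) scale had a median of 0.20 over the 28 genes, against 0.42 over all genes tested and 0.36 over the 727 other genes with mean levels in the range of the high class. Those 727 genes shared the range but were not matched in level, with a median of 158 TPM against 586 TPM for the high class. The highest heart exceeded the lowest by a median factor of 1.49 over the members, against 2.94 over all genes tested and 2.12 over those 727 genes. RPL19, near the exit of the nascent chain, was the steadiest, with a factor of 1.24 between its lowest heart at 733 TPM (pig 28) and its highest at 911 TPM (pig 24). RPS12 and RPL11 each had a factor of 1.30. By this factor RPS28 varied most in the high class, from 787 TPM in pig 28 to 1548 TPM in pig 34, a factor of 1.97. The low-level RPL10L, with a factor of 2.51, RPL26L1, with 2.13, and RPL7L1, with 1.98, had larger factors than RPS28. By the SD within groups the order was another, with RPL26L1 highest at 0.42, then RPS21 of the high class at 0.34, RPS27L at 0.32 and RPL7L1 at 0.30, and with RPS28 and RPL10L both at 0.25.

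The summed level of the 28 genes hardly differed between the Group 2 hearts and spread widely in the HOPE groups. It was 17545, 17522 and 17259 TPM in Group 2, 15308, 14314 and 18733 TPM in Group 1 and 14792, 18308 and 16826 TPM in Group 3. The means were 17442 ± 159 TPM (SD, n = 3) in Group 2, 16119 ± 2318 TPM in Group 1 and 16642 ± 1765 TPM in Group 3, and both HOPE groups had hearts above and below every Group 2 heart. The same held for genes at large: the SD between hearts of the median log2 deviation was 0.0085 in Group 2, 0.36 in Group 1 and 0.26 in Group 3 over all genes tested, and 0.026, 0.21 and 0.17 over the members. As a share of all TPM the members took 1.43% in pig 28 to 1.87% in pig 30. Pig 30 held the highest value of 11 of the 28 genes and pig 28 the lowest value of 14. Pig 30 also had the lowest mitochondrially encoded share, and the order of hearts changed when these transcripts were left out.

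As a percent of the TPM outside the mitochondrially encoded genes, the members took 3.41, 3.47 and 3.65% in Group 2, 3.43, 3.16 and 3.03% in Group 1 and 3.28, 3.597 and 3.05% in Group 3. Pig 30 went from the highest heart to the lowest by this measure, and held the highest value of 0 of the 28 genes. Pig 29, of Group 2, then held the highest value of 10 genes, and pig 34, of Group 3, the lowest value of 12. The group means were 3.51 ± 0.12%, 3.21 ± 0.20% and 3.31 ± 0.28% (SD, n = 3), and Group 1 overlapped Group 2 only through pig 27, while pig 33 of Group 3 lay among the Group 2 hearts.

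The balance of the 2 subunits was compared by their summed levels. The 16 small subunit genes summed to 11136, 10965 and 10924 TPM in Group 2, 9529, 8786 and 11733 TPM in Group 1 and 9408, 11702 and 11015 TPM in Group 3. The 12 large subunit genes summed to 6409, 6557 and 6334 TPM, 5779, 5529 and 7000.3 TPM and 5385, 6607 and 5810.3 TPM in the same order. The ratio of small to large was 1.74, 1.67 and 1.72 in Group 2, 1.65, 1.59 and 1.68 in Group 1 and 1.75, 1.77 and 1.90 in Group 3, which no common scaling of a heart can alter. All 3 Group 3 hearts lay above all hearts of the other groups, the closest pair being pig 31 and pig 24 with 1.747 and 1.737. The size of this ratio depends on which genes carry a symbol, here 16 against 12, and genes without one entered neither sum. As the mean level per gene of the high class, small over large was 1.05, 1.01 and 1.05 in Group 2. It was 0.996, 0.962 and 1.01 in Group 1 and 1.06, 1.07 and 1.15 in Group 3.

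The separation of Group 3 from Group 1 in the ratio of sums held when any 1 of the 28 genes was left out. That from Group 2 was lost when RPS3, RPS28, RPLP2, RPL5 or RPL27 was left out. The ratio is a score over the members and was given no test. Pig 34, with the highest ratio of 1.90, also had the highest RPS28 and the lowest RPL5 and RPL10A of the 9 hearts.

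**Figure D2:**
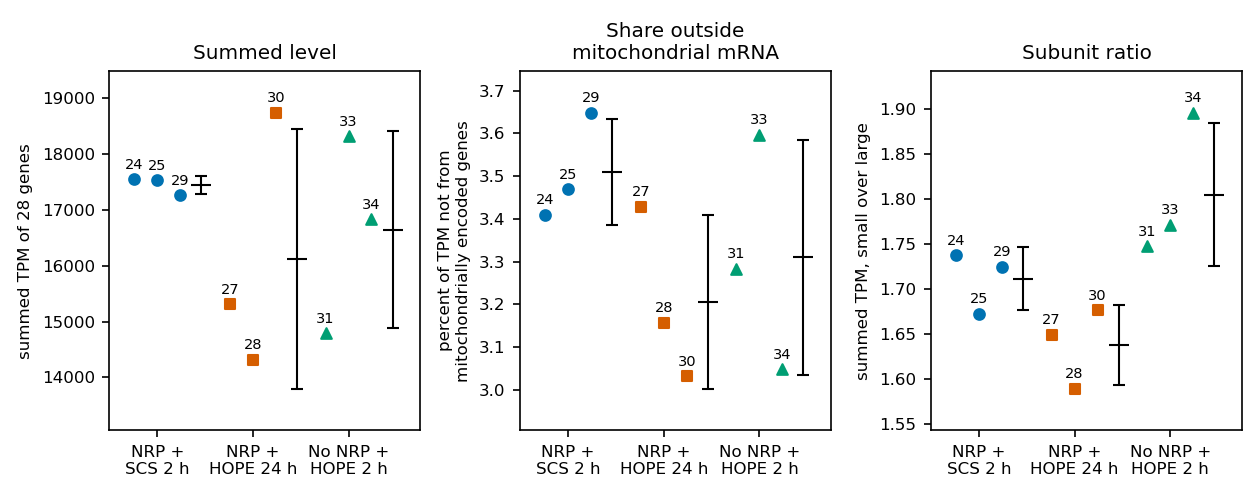
Left, summed TPM of the 28 ribosomal protein genes per heart; middle, their percent of the TPM outside mitochondrially encoded genes; right, ratio of the summed TPM of small to large subunit genes. Points are hearts with pig numbers, bars are mean ± SD (n = 3), the vertical axes do not start at 0, and pig 30 is the highest heart at left with 18733 TPM and the lowest in the middle with 3.03%.

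The comparison of NRP + HOPE 24 h with NRP + SCS 2 h asked what the long HOPE preservation changed in hearts that had NRP. None of the 28 genes passed limma's test at an adjusted p under 0.05 (lowest adjusted p = 0.993), where 0.0255% of all genes did, and 0 had an unadjusted p under 0.05, where 4.97% of all genes did (1.82% higher and 3.14% lower). No member was separated between the groups, where 9.82% of all genes were (2.5% higher and 7.32% lower). The median difference of the members was -0.13 on the log2(TPM + 1) scale, close to -0.12 over all genes tested, and turned to 0.019 under median-of-ratios scaling, which moved the median of all genes to 0.0003. In TPM as deposited, Group 1 was below Group 2 in 24 of the 28 genes (64.1% of all genes tested) and above it in 4 (35.9%).

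RPL10L had the largest difference, -0.41 (95% interval -1.08 to 0.26), with 3.23, 3.33 and 3.97 TPM in Group 2 and 1.58, 2.40 and 3.43 TPM in Group 1. Pig 27 lay lowest, and pig 30 lay within the Group 2 range. Among the abundant genes RPS9 differed most, -0.28 (95% interval -0.78 to 0.22), with 1246, 1241 and 1278 TPM against 953, 873 and 1335 TPM. Here pigs 27 and 28 lay below every Group 2 heart and pig 30 above all of them. RPS3 behaved less unevenly, with 1542, 1342 and 1407 TPM in Group 2, 1288, 1072 and 1365 TPM in Group 1 and a difference of -0.21 (95% interval -0.63 to 0.21). Only pig 30 reached the Group 2 range. RPLP2 of the stalk had 1043, 1008 and 864 TPM against 900.0, 669.7 and 995 TPM, a difference of -0.20 (95% interval -0.67 to 0.27), and RPL26L1 had 26.5, 36.7 and 39.9 TPM against 22.0, 22.0 and 47.0 TPM, a difference of -0.25 (95% interval -0.97 to 0.48). For RPLP2 pig 28 was the low heart, and for RPL26L1 pigs 27 and 28 were.

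Other members had group means close together. RPL11 averaged 957 ± 27.8 TPM in Group 2 and 961 ± 106 TPM in Group 1 (SD, n = 3), and the 95% interval of its log2 difference ran from -0.44 to 0.44. RPS16, whose tail reaches the peptidyl tRNA, had the highest difference, 0.066 (95% interval -0.43 to 0.56), with 397, 439 and 441 TPM against 409, 404 and 532 TPM, and without pig 30 it was -0.063. RPS12 differed by -0.12 (95% interval -0.55 to 0.31), and by 0.026 under median-of-ratios scaling. The 95% intervals included 0 for all 28 genes and lay within -1 to 1, that is less than a 2-fold difference either way, for all but RPL10L.

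The comparison of No NRP + HOPE 2 h with NRP + SCS 2 h held the storage time equal, while NRP, storage method and temperature differed together. None of the 28 genes passed limma's test (lowest adjusted p = 0.832), where 0.0509% of all genes did, and 0 had an unadjusted p under 0.05, where 7.22% did. In TPM as deposited, Group 3 was below Group 2 in 25 of the 28 genes (57.8% of all genes tested), among them all 12 of the large subunit. The median difference was -0.065, against -0.074 over all genes, and turned to 0.036 under median-of-ratios scaling. By subunit the median was -0.12 for the large and -0.050 for the small. The groups did not overlap for RPS3A, RPL10A and RPS13, 3 of 28 genes, all lower in Group 3, where 14.7% of all genes did not (10.3% lower and 4.44% higher).

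RPS3A, a protein of the small subunit platform, had 655, 661 and 715 TPM in Group 2 and 506, 655 and 497 TPM in Group 3, a difference of -0.30 (95% interval -0.76 to 0.16). Pig 33 lay just under the lowest Group 2 heart, with 654.8 against 654.9 TPM. RPL10A had 848, 952 and 810.1 TPM against 732, 796 and 696 TPM, a difference of -0.23 (95% interval -0.67 to 0.21), and RPS13 had 433, 420.1 and 450.4 TPM against 358, 419 and 404 TPM, a difference of -0.15 (95% interval -0.63 to 0.34). In both, the closest hearts of the 2 groups differed by less than the spread within Group 2. RPL5 of the 5S particle had 827, 839 and 874 TPM against 636, 869.7 and 621 TPM, a difference of -0.27 (95% interval -0.76 to 0.22), and its partner RPL11 926, 979 and 967 TPM against 834, 1075 and 911 TPM, a difference of -0.034 (95% interval -0.48 to 0.41) that was 0.068 under median-of-ratios scaling. Pigs 31 and 34 were low for RPL5 and pig 33 was not, while for RPL11 pig 33 was the highest of the 6 hearts.

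RPL7L1 had the largest difference of this comparison, -0.40 (95% interval -1.04 to 0.24), with 27.6, 25.2 and 25.9 TPM in Group 2 and 17.8, 28.0 and 15.1 TPM in Group 3. Pig 33 lay above the Group 2 hearts and the other two below them. In the opposite direction, RPS28 had 1186, 1226 and 1061 TPM against 1109, 1254 and 1548 TPM, a difference of 0.16 (95% interval -0.34 to 0.66). Pig 34 stood highest, and pigs 31 and 33 lay close to the Group 2 hearts. The intervals of all 28 genes included 0, and that of RPL7L1 alone reached below -1.

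Set against No NRP + HOPE 2 h, the NRP + HOPE 24 h hearts were lower in 16 and higher in 12 of the 28 genes (53.9% and 46.1% of all genes), with a median of -0.036 (-0.035 over all genes) that turned to 0.010 under median-of-ratios scaling and to 0.067 at most on leaving out 1 heart. No gene passed limma's test (lowest adjusted p = 0.943), where 0.0509% of all genes did, and 0 had an unadjusted p under 0.05, where 6.01% did. The groups did not overlap for RPL10A, higher in Group 1, and RPS3, lower in Group 1, 2 of 28 genes, where 7.48% of all genes did not (2.97% higher and 4.51% lower). RPL10A had 825, 828 and 1010.5 TPM in Group 1, a difference of 0.26 (95% interval -0.19 to 0.70) from the Group 3 values above. RPS3 had 1418, 1385 and 1404 TPM in Group 3 and a difference of -0.18 (95% interval -0.61 to 0.24). The largest difference was that of RPS28, -0.32 (95% interval -0.82 to 0.18), with 1125, 787 and 1251 TPM in Group 1. RPL7L1 differed by 0.28 (95% interval -0.36 to 0.92) with 20.5, 29.8 and 22.8 TPM in Group 1, RPL5 by 0.24 (95% interval -0.25 to 0.73) with 683, 844 and 979.9 TPM, RPL10L by -0.28 (95% interval -0.95 to 0.39) and RPS9 by -0.23 (95% interval -0.73 to 0.27). In each of these 5 genes the 2 groups overlapped.

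**Figure D3:**
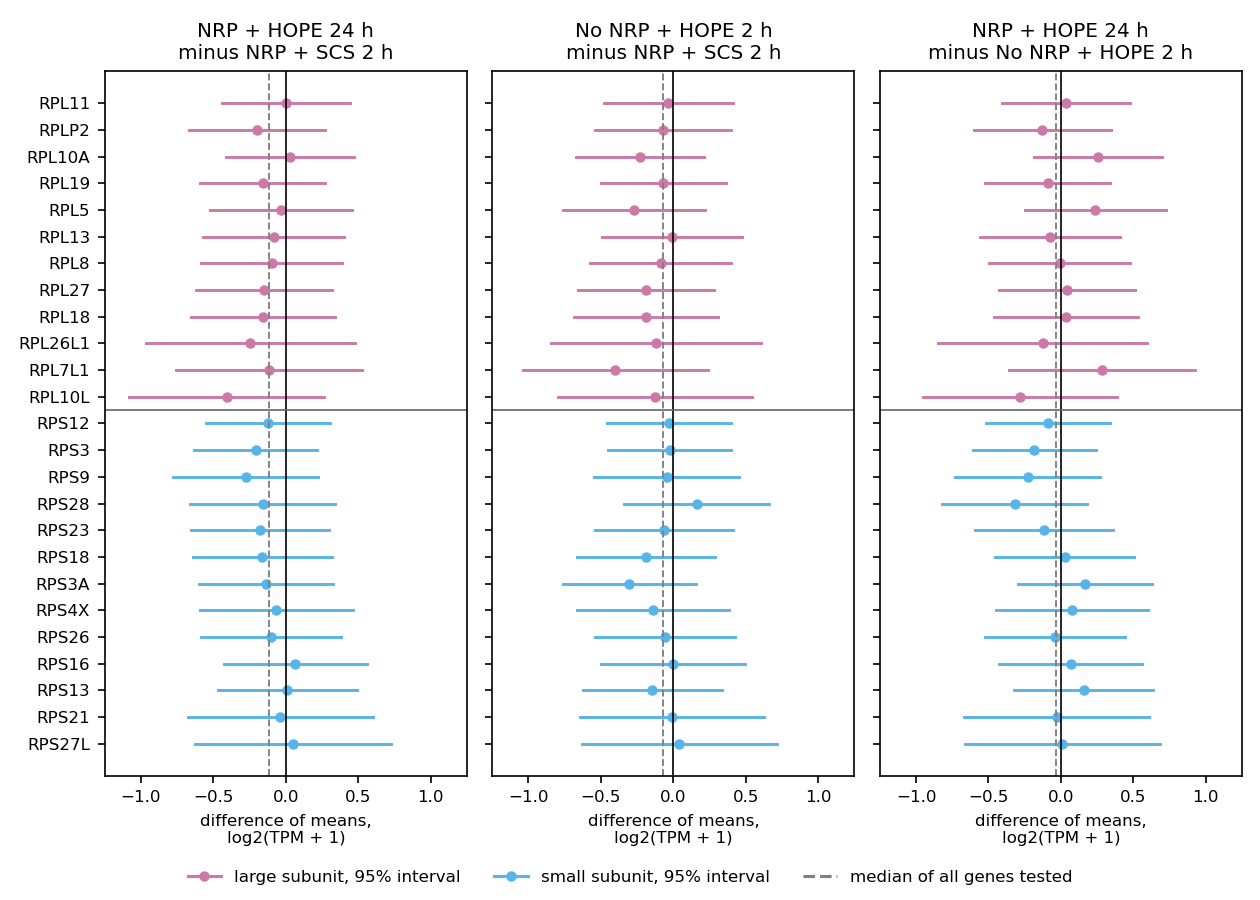
Difference of group means on the log2(TPM + 1) scale for 25 of the 28 ribosomal protein genes, with its 95% interval from limma, in the 3 comparisons; the dashed line is the median of the 11782 genes tested. Every interval includes 0, and the points lie between -0.41 and 0.28, scattered around the dashed line.

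To separate the balance among the members from their common level, every heart was also scaled to the members' summed TPM. The groups then did not overlap for 3 of 28 genes between Group 1 and Group 2 (11.3% of all genes on this scale, 4.8% higher and 6.48% lower), for 3 between Group 3 and Group 2 (16.4%, 6.67% higher and 9.71% lower) and for 2 between Group 1 and Group 3 (10.6%, 4.97% higher and 5.63% lower). Relative to the other members, RPL11 and RPS16 were higher and RPL10L lower in Group 1 than in Group 2, by 0.12, 0.19 and -0.32 in log2. RPS3A and RPL27 were lower in Group 3 than in Group 2, by -0.23 and -0.12. RPL10A and RPS13 were higher in Group 1 than in Group 3, by 0.31 and 0.21. RPS3A was thus the member whose Group 3 hearts lay below all Group 2 hearts on both scales, and RPL10A the member whose Group 1 hearts lay above all Group 3 hearts on both. Single hearts stood out more than groups on this scale: pig 34 was low for RPL7L1, RPL5, RPS3A and RPL10A and high for RPS28, and pig 28 was the reverse for each of these 5 genes.

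**Figure D4:**
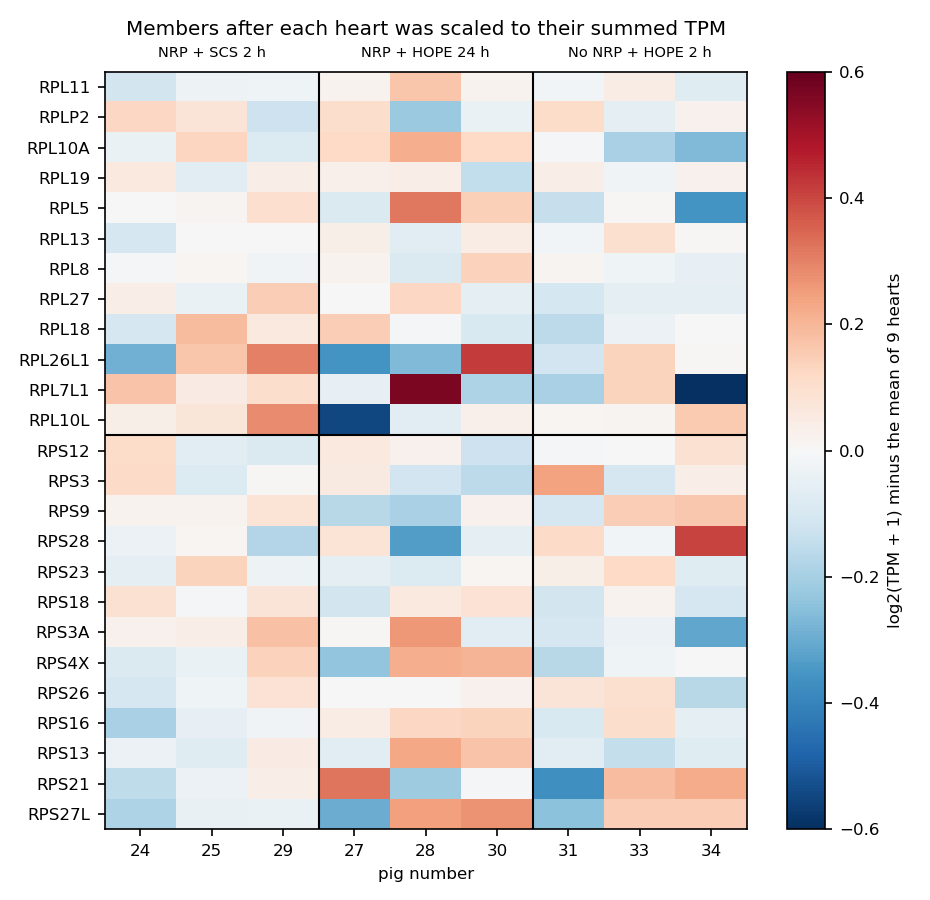
25 of the 28 members (rows, large subunit above the line) by heart (columns, by pig number and group) after each heart was scaled to the members' summed TPM; color is log2(TPM + 1) minus the gene's mean over 9 hearts, red higher and blue lower. Pigs 28 and 34 show opposite colors for RPL5, RPL7L1, RPL10A, RPS3A and RPS28, and most other cells are pale.

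Other genes of protein synthesis were counted from 4 lists, each given beside the members. Other TOP mRNAs (12 tested, such as the elongation factors and PABPC1) had 0 genes at an unadjusted p under 0.05 in Group 1 against Group 2 and a median of -0.11. Initiation factors (24 tested) had 0 with a median of -0.17, ribosome biogenesis factors (42 tested) 1 lower with a median of -0.27, and regulators such as the mTOR complex, its upstream brakes and MYC (16 tested) 2 lower with a median of -0.34. Of all genes, 3.14% were lower at this threshold. On leaving out 1 heart, the median of the biogenesis factors ran from -0.38 to -0.12 and their count of lower genes from 0 to 3. Among the regulators, the S6 kinase gene RPS6KB2 had 20.2, 20.03 and 21.1 TPM in Group 2 and 10.04, 7.59 and 15.4 TPM in Group 1. The biogenesis gene was TCOF1, a cofactor of RNA polymerase I, with 6.46, 3.39 and 4.55 TPM and 2.173, 1.70 and 2.40 TPM. In both genes each Group 1 heart lay below each Group 2 heart, and neither passed at an adjusted p under 0.05 in limma.

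In Group 3 against Group 2 the factors that build ribosomes lay lower on the whole than the ribosomal proteins, though the difference between the 2 lists was not tested. Of the 42 biogenesis genes tested, 39 were below 0, 19 had an unadjusted p under 0.05, all lower (4.65% of all genes tested), and 21 had Group 3 hearts all below Group 2 hearts (10.3% of all genes). Their median log2 difference was -0.65, against -0.065 for the 28 members and -0.074 for all genes, and it stayed between -0.79 and -0.43 in every alternative. None of the 42 passed at an adjusted p under 0.05 in limma. The count of 19 ran from 2 to 23 on leaving out 1 heart: it was 2 without pig 24, 7 without pig 25, 13 without pig 29, 4 without pig 31, 23 without pig 33 and 4 without pig 34. Over all genes the lower calls, 548 of 11782, were 280, 389, 495, 277, 613 and 629 in the same order. With array weights the count was 11, and 960 over all genes.

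WDR12, of the complex that matures the large subunit rRNA, had 15.2, 10.4 and 11.5 TPM in Group 2 and 6.52, 4.99 and 3.28 TPM in Group 3, a log2 difference of -1.19 ± 0.34 (SE). RRP9, a component of the U3 particle that processes pre-rRNA, had 56.2, 34.2 and 31.5 TPM and 19.8, 22.4 and 12.6 TPM, a difference of -1.10 ± 0.33. MDN1, the large ATPase of large subunit assembly, had 4.15, 3.06 and 1.90 TPM and 0.812, 0.735 and 2.10 TPM, a difference of -0.88 ± 0.36. WDR12 and RRP9 did not overlap between the groups, and MDN1 did through pig 34. Pig 24 was the highest of these 6 hearts for all 3 genes.

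Of the other lists in Group 3 against Group 2, TOP mRNAs had 1 of 12 lower at an unadjusted p under 0.05 with a median of -0.20, and initiation factors 1 of 24 with a median of -0.26, where 4.65% of all genes were lower. Among the TOP mRNAs NPM1, a nucleolar chaperone of ribosome assembly, had 463, 423 and 423 TPM in Group 2 and 237, 413 and 249 TPM in Group 3, and HNRNPA1 had 549, 606 and 564 TPM and 328, 450.4 and 408 TPM. Their differences were -0.58 ± 0.28 and -0.55 ± 0.24 (SE), and neither gene overlapped between the groups. Against the same 4.65%, the regulators had 2 of 16 lower, SESN2 among them, with a median of -0.47. Group 3 hearts lay all below Group 2 hearts in 4 of the 12 TOP mRNAs, 6 of the 24 initiation factors and 6 of the 16 regulators (10.3% of all genes). They lay all above in 1 initiation factor (4.44% of all genes). SESN2, a stress-induced inhibitor of mTOR complex 1, had 28.7, 17.5 and 13.3 TPM in Group 2, 2.71, 8.63 and 4.69 TPM in Group 3 and 20.5, 29.9 and 20.5 TPM in Group 1. It lay below both NRP groups in every Group 3 heart, by -1.76 ± 0.39 against Group 2, and Group 1 lay above Group 3 by 2.04 ± 0.39 (SE), with adjusted p of 0.16 and 0.14 in limma. On leaving out 1 heart the second difference ran from 1.71 to 2.40. It was 2.40 without pig 33 and then passed at an adjusted p under 0.05 in limma. Without that heart 16 of 11782 genes passed with an absolute log2 difference over 1, against 6 with all hearts.

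Between Group 1 and Group 3 the biogenesis genes were above 0 in 34 of 42 (46.1% of all genes). Their median was 0.33, against -0.035 over all genes, and ran from 0.18 to 0.50 on leaving out 1 heart. In this list 1 gene was higher at an unadjusted p under 0.05 (2.78% of all genes), again WDR12, at 7.40, 13.7 and 15.3 TPM in Group 1. WDR12 in Group 1 lay above every Group 3 heart. This comparison shares the Group 3 hearts with the one before, so the 2 are not independent. Other TOP mRNAs (median 0.13) and initiation factors (median 0.065) had 0 genes at this threshold, and of the regulators only SESN2 passed it (median 0.012).

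**Figure D5:**
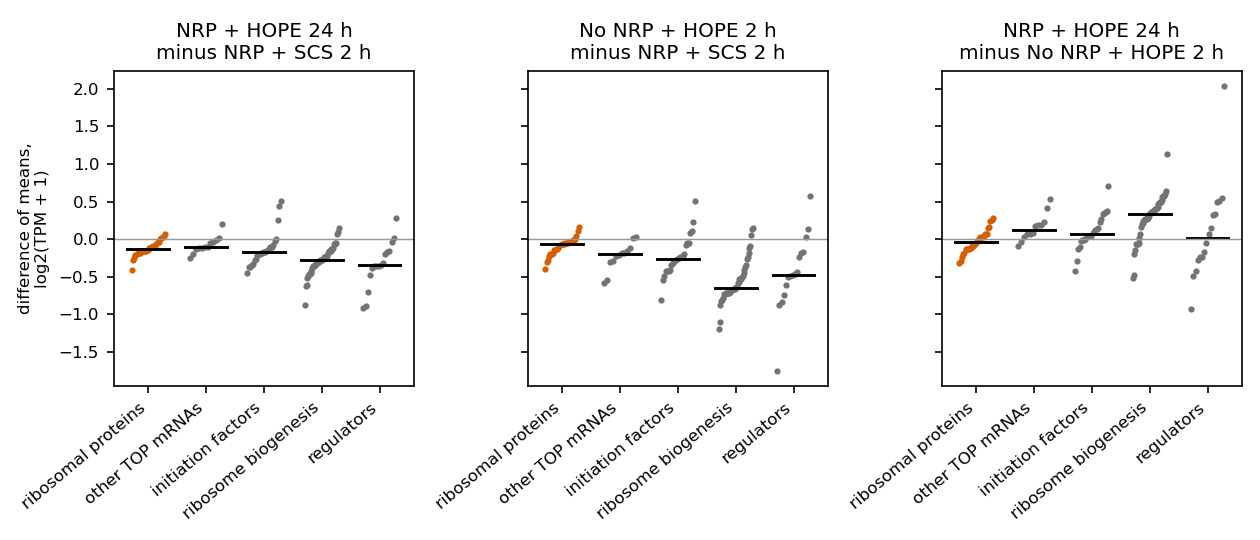
Difference of group means on the log2(TPM + 1) scale for each tested gene of 5 lists in the 3 comparisons; each point is 1 gene, black bars are medians, and ribosomal proteins are in orange. In the middle panel the ribosome biogenesis genes center on -0.65 while the ribosomal proteins center on -0.065.

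Markers of blood differed between hearts. HBB, the adult beta globin, had 70.8, 132 and 78.4 TPM in Group 2, 73.5, 339 and 419.8 TPM in Group 1 and 220.2, 368 and 220.1 TPM in Group 3, and the listed erythroid genes in the table, 3 of 5, summed to 71.4 to 133 TPM, 73.9 to 425 TPM and 222 to 373 TPM. Both erythroid genes tested were higher at an unadjusted p under 0.05 in Group 3 than in Group 2 (2.57% of all genes), without overlap. HBB was also higher at this threshold in Group 1 than in Group 2 (1.82% of all genes), with overlap. Neutrophil markers summed to 2.02 to 13.2 TPM in Group 2, 0.357 to 3.89 TPM in Group 1 and 0 to 0.343 TPM in Group 3, with CSF3R listed at 0 in all hearts. Endothelial markers summed to 337 to 370 TPM, 173 to 375 TPM and 160 to 348 TPM, and fibroblast markers to 390 to 507 TPM, 423 to 560 TPM and 526 to 655 TPM, in the same order. Smooth muscle and pericyte markers summed to 258 to 382 TPM, 188 to 308 TPM and 358 to 426 TPM with MYH11 listed at 0, macrophage markers to 66.3 to 175 TPM, 54.9 to 129 TPM and 96.4 to 208 TPM, and lymphocyte markers to 2.22 to 6.49 TPM, 2.04 to 6.63 TPM and 2.40 to 13.8 TPM. The neutrophil gene S100A9 was lower than in Group 2 at an unadjusted p under 0.05 in Group 1 and Group 3, by -1.35 and -2.17 (3.14% and 4.65% of all genes). Between Group 1 and Group 3 the cardiomyocyte gene ACTC1 was higher and the smooth muscle gene ACTA2 lower at this threshold (2.78% and 3.23%). None of these markers passed at an adjusted p under 0.05 in limma. The part of the cell types in the values of the ribosomal protein and biogenesis genes was not tested.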

How the data were processed

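Apex biopsies of 9 porcine hearts were sequenced as poly(A) RNA. The deposited values are TPM: per the labels and the study's methods, the authors trimmed reads with Trimmomatic 0.36, aligned them with STAR 2.5.2b and counted unique exon reads with featureCounts of Subread 1.5.2. The genome build and the use of strand in counting are not given in the sources used here. TPM keeps no read depth, so no counting interval or detection floor was given, and precision rests on 3 hearts per group. A further 9 columns of the table match no sample and were not used.

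Members and context lists were chosen with earlier results of these data known. Genes reaching 1 TPM in 3 or more hearts entered the test on log2(TPM + 1) with limma 3.58.1 in R 4.3.3, 1 mean per group over all 9 hearts, empirical Bayes with trend, and Benjamini-Hochberg adjustment over 11782 genes. With 3 hearts against 3, an exact permutation test cannot go below 0.1. P-values set each group difference against the spread between hearts within groups, which limma moderates with a trend over all genes tested. The code was tested on simulated data. Sums and figures used Python 3.11.15, numpy 2.4.6, pandas 2.3.3 and matplotlib 3.10.9.

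Named genes were the members with the highest and lowest levels, those with the largest differences in each comparison, fixed role groups and paralogs, and the 3 genes of each context list with the largest differences; others were named after their values were seen. A planned RPL3L to RPL3 ratio was not analysed here, and some genes are counted but not reported here by name. Alternatives changed the pseudocount, the filter, the scaling, the fit or the hearts included.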

Additional observations from a re-analysis of the deposited data

How the results depend on the processing

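No member passed at an adjusted p under 0.05 in limma when any 1 heart was left out or under any other alternative run. With array weights, 3 members had an unadjusted p under 0.05 between Group 1 and Group 2 (1812 of 11782 over all genes) and 3 between Group 1 and Group 3 (1869 over all genes), whose median became -0.24 (-0.16 over all genes). Leaving out 1 heart gave 0 to 1 such members between Group 1 and Group 2, the 1 arising without pig 30, where 1257 of all 11782 genes had such a p, and 0 in the others. The members' median then ran from -0.22 to -0.055, from -0.16 to -0.0032 and from -0.17 to 0.067 for Group 1 minus Group 2, Group 3 minus Group 2 and Group 1 minus Group 3. For Group 1 minus Group 2, RPL11 was 0.15 under median-of-ratios scaling, 0.070 under quantile normalization and 0.12 scaled to the members' sum, with -0.088 to 0.055 on leaving out hearts. RPS12 was 0.026 under median-of-ratios scaling and 0.0016 scaled to the members, and RPS16 was -0.032 with array weights and -0.063 to 0.13 on leaving out hearts. For Group 3 minus Group 2, RPL11 was 0.068 under median-of-ratios scaling, 0.0083 under quantile normalization, 0.039 scaled to the members and 0.074 with array weights, with -0.13 to 0.048 on leaving out hearts. The cause was not tested. Scaling to the members' sum and the biogenesis counts were chosen after seeing the data. No paired analysis was possible because the pig numbers are not shared between groups. TPM gives no depth, so how far depth limits low genes such as RPL10L is unknown.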

Other observations

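A further 5 ribosomal protein genes have no symbol in the table and were named through a reference table of gene identifiers: RPL4, RPL14, RPL29, RPL38 and RPLP1. RPL14, a large subunit protein, had 236, 140.0 and 168 TPM in the NRP + SCS 2 h hearts, 130.1, 252 and 185 TPM in the NRP + HOPE 24 h hearts and 225, 51.0 and 251 TPM in the No NRP + HOPE 2 h hearts. Its highest heart exceeded its lowest by a factor of 4.94, above the 2.51 of RPL10L, the largest such factor of the 28 members, and its low heart was pig 33. RPL36AL, a paralog outside the name rule, lay between 31.5 and 44.9 TPM, and RACK1, a small subunit protein that every cell uses, was listed at 0 in all hearts.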
